A study of Homo sapiens with 6 samples.

Results

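The genes described are 10 of the 17499 genes in a table of RNA levels of akirin2 KO and WT HL60 cells. They encode leukocyte integrin subunits and were ordered by the pairs their proteins form. The genes were chosen by name, by a rule that holds no threshold on measured values, but with earlier results of these data known. Of the 10 genes, 8 encode alpha subunits (ITGA2B, ITGA4, ITGA5, ITGA6, ITGAE, ITGAL, ITGAM and ITGAX) and 2 encode beta subunits (ITGB1 and ITGB2). HL60 is a human promyelocytic leukemia line used as a model of neutrophils, and Akirin2 is a nuclear cofactor of transcription that binds no DNA itself. The KO cells were an edited pool that was not expanded from single clones, and the WT cells were a control pool that had received SpCas9 only, with 3 libraries of each. Both were grown in RPMI medium with fetal bovine serum. The samples titled KO carry the genotype label knock down, and all cells are one line. The study calls the replicates biological without stating if each was a culture of its own, so the p-values reflect the spread from library to library.

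Integrins are adhesion receptors made of 1 alpha and 1 beta subunit, which assemble in the endoplasmic reticulum before the pair reaches the cell surface. An alpha chain that finds no beta chain is mostly retained in the cell, so that the supply of a shared beta subunit bears on every receptor that uses it. In leukocytes the beta2 chain joins the alpha chains L, M and X to form LFA-1, Mac-1 and p150,95, which bind ICAMs, complement fragments and fibrinogen. The beta1 chain joins the alpha chains 4, 5 and 6 to form receptors of VCAM-1 and fibronectin, of fibronectin and of laminin. Resting receptors are switched on from inside the cell by talin and kindlin, and bound receptors signal back through kinases of the Src and focal adhesion families.

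The libraries held 36096459 to 47607520 reads in KO and 41419318 to 52244122 reads in WT, and values are read counts scaled by the size factor of their library (normalized counts). AKIRIN2 had 1613, 1731 and 1651 normalized counts in the KO libraries and 2378, 2450 and 2420 in the WT libraries, so the targeted gene was lower but still present in each KO library (exact two-sided permutation test, p = 0.1, the smallest that 3 against 3 libraries allow). The azurophil granule genes that mark promyelocytes were all present, and 6 of 6 were higher in KO, with MPO, the peroxidase of these granules, at 537627 ± 5348 in KO and 283701 ± 8755 in WT (SD, n = 3 each). The WT1 library had an excess of 56 genes (at least 50 normalized counts there and more than 2.5 times those of each other WT library), and KO3 was the highest KO library for 44 of them. None of the 10 integrin genes is among the 56, but ITGB1 was highest in WT1 of all libraries, and its values are given with and without that library. Of 7 listed fibroblast markers none passed the test (limma, also none at an unadjusted p under 0.05 and none with DESeq2). However, 2 passed with edgeR, 2 with a replicate block, and 0 to 2 with single libraries left out. Their summed level was 243 to 389 in KO and 254 to 1095 in WT.

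All 10 integrin genes passed the filter on low values, a mean count of 10, and entered the test. In KO 5 were higher (ITGA2B, ITGA4, ITGA5, ITGA6 and ITGAE), 3 were lower (ITGAL, ITGAX and ITGB2) and 2 did not pass the test (ITGAM and ITGB1), by limma across all 17425 genes tested with a Benjamini-Hochberg adjusted p under 0.05. In this comparison 60.6% of all genes passed, 30.3% higher and 30.3% lower, and the 8 of 10 has to be read against that share. The same 8 genes had KO and WT libraries that did not overlap, 5 with KO higher and 3 with KO lower, as did 65.2% of all genes (32.7% higher and 32.5% lower in KO). The median KO/WT log2 fold change was 0.12 over the 10 genes and -0.0066 over all genes tested. Fold changes are on log2(normalized count + 1).

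**Figure D1:**
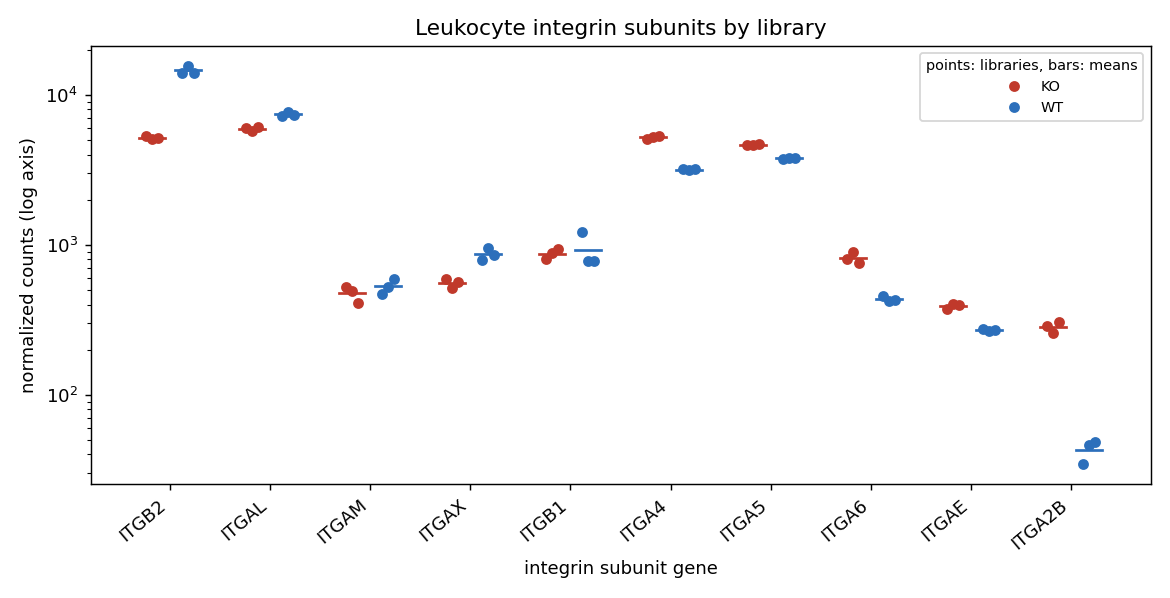
Normalized counts (log axis) of the 10 integrin subunit genes, grouped as the beta2 family, the beta1 family, ITGAE and ITGA2B. Points are single libraries, KO left of WT, and bars are means. ITGB2 sits between 5088 and 5338 in KO and between 13959 and 15614 in WT, while ITGA2B sits between 259 and 304 in KO and between 34.7 and 48.5 in WT.

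The beta2 subunit had the largest fall of the 10 genes. ITGB2 (chromosome 21, 44885953 to 44931989, minus strand, GRCh38, GENCODE 29) encodes CD18, the chain without which none of the leukocyte-specific receptors LFA-1, Mac-1 and p150,95 is made. It had 5338, 5088 and 5141 normalized counts in the KO libraries and 13959, 15614 and 14083 in the WT libraries. Every KO library lay far below every WT library. The mean was 5189 ± 132 in KO and 14552 ± 922 in WT (SD, n = 3 each), a log2 fold change of -1.49 (SE 0.047, limma adjusted p = 2.8e-15), with WT at 2.80 times KO. Within ITGB2, 303 exonic bases (4.46%) overlap the antisense gene ITGB2-AS1, which had 125, 153 and 168 normalized counts in KO and 275, 321 and 296 in WT. The strand setting of the counting is not given in the sources used here, so reads of the shared bases cannot be assigned to either gene, but ITGB2-AS1 as a whole held far fewer reads than ITGB2.

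The alpha partners of ITGB2 fell less or did not pass the test. ITGAL (chromosome 16, 30472658 to 30523185, plus strand) encodes CD11a, the alpha chain of LFA-1, the receptor with which leukocytes hold on to ICAM-1. It had 6003, 5744 and 6096 normalized counts in KO and 7274, 7726 and 7373 in WT, again with no overlap. The log2 fold change was -0.33 (SE 0.043, limma adjusted p = 2.3e-06). Of its exonic bases 415 (6.41%) overlap the antisense gene AC116348.3, which held under 50 normalized counts in each library. ITGAX (chromosome 16, 31355134 to 31382997, plus strand) encodes CD11c, a chain rich on monocytes, macrophages and dendritic cells. Its 588, 519 and 567 normalized counts in KO lay below the 798, 953 and 855 in WT, with a log2 fold change of -0.64 (SE 0.075, limma adjusted p = 5.2e-07).

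ITGAM (chromosome 16, 31259967 to 31332892, plus strand) encodes CD11b, the alpha chain of Mac-1 (complement receptor 3), which appears on the surface as myeloid cells mature. It had 525, 491 and 409 normalized counts in KO and 470, 527 and 591 in WT, and the groups overlapped. The log2 fold change was -0.16, with a 95% interval of -0.36 to 0.05 (limma adjusted p = 0.17). Without WT1, the WT library with the lowest ITGAM value, it was -0.24 with an adjusted p = 0.045. ITGAM and ITGAX lie next to each other on chromosome 16 on the same strand, and ITGAX passed the test while ITGAM did not, although the difference between their changes was not tested.

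The 3 alpha subunits described here that pair with beta1 were all higher in KO, whereas ITGB1 did not pass the test. This does not hold for every partner of beta1, since ITGA9, described further below, was lower. ITGA4 (chromosome 2, 181457202 to 181536187, plus strand) encodes CD49d, the alpha chain of VLA-4, by which immature blood cells adhere to bone marrow stroma. It had 5090, 5196 and 5300 normalized counts in KO and 3208, 3135 and 3191 in WT. The libraries of each group lay close together, and the log2 fold change was 0.71 (SE 0.042, limma adjusted p = 3.2e-11). ITGA6 (chromosome 2, 172427354 to 172506282, plus strand), the alpha chain of a laminin receptor, had 801, 895 and 761 normalized counts in KO and 455, 419 and 427 in WT. Its log2 fold change was 0.91 (SE 0.075, limma adjusted p = 3.1e-09), the largest of these 3 partners of ITGB1.

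ITGA5 (chromosome 12, 54395261 to 54419460, minus strand) encodes the alpha chain of VLA-5, the classical fibronectin receptor. It had 4655, 4595 and 4669 normalized counts in KO and 3746, 3777 and 3800 in WT. The change was small, a log2 fold change of 0.30 (SE 0.042, limma adjusted p = 4.3e-06), but the coefficient of variation between libraries was only 0.852% in KO and 0.718% in WT. Of the 10 genes ITGA5 thus had the least spread in both groups.

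ITGB1 (chromosome 10, 32900319 to 33005792, minus strand) encodes CD29, the beta chain shared by the VLA receptors. It had 806, 877 and 934 normalized counts in KO and 1212, 774 and 777 in WT, and WT1 alone lay above all KO libraries while the other two WT libraries lay below them. The log2 fold change was -0.05 with a 95% interval of -0.30 to 0.20 (limma adjusted p = 0.75). Without WT1 it turned to 0.17 (adjusted p = 0.057), so that no direction can be given for this gene. Its coefficient of variation in WT, 27.3%, was the highest of the 10 genes in either group.

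The remaining pair of alpha subunits belong to receptors best known outside neutrophils. ITGAE (chromosome 17, 3714628 to 3801243, minus strand) encodes CD103, which joins beta7 and holds lymphocytes to E-cadherin of epithelia. It had 375, 404 and 399 normalized counts in KO and 273, 268 and 270.2 in WT, without overlap, and a log2 fold change of 0.54 (SE 0.085, limma adjusted p = 2.0e-05). Of its exonic bases 427 (6.41%) overlap HASPIN on the other strand, a gene that moved the opposite way, with 204 ± 44.2 normalized counts in KO and 385 ± 16.4 in WT (SD, n = 3 each).

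ITGA2B (chromosome 17, 44372180 to 44389505, minus strand) encodes CD41, the alpha chain of the platelet fibrinogen receptor, and had the largest change of the 10 genes. It had 287.8, 259.1 and 303.8 normalized counts in KO and 34.7, 46.1 and 48.5 in WT. Every KO library held more than every WT library by a wide margin. The mean was 284 ± 22.6 in KO and 43.1 ± 7.36 in WT (SD, n = 3 each), 6.58-fold higher in KO, and the log2 fold change was 2.70 (SE 0.16, limma adjusted p = 1.9e-11). ITGB3, the beta chain with which it forms the platelet receptor, was not listed in the table, so no ratio could be computed for this pair.

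The other genes that mark megakaryocytes and platelets did not move with ITGA2B as a group. Of 12 markers 6 were listed, and 1 was higher, 3 were lower and 2 missed the threshold, with a median log2 fold change of -0.24 against -0.0066 over all genes. Their summed level was 545 to 569 normalized counts in KO and 566 to 577 in WT. Most of each sum was GATA1 and CLEC1B, which moved in opposite directions. Several of the other markers were near the floor, and at a minimum mean of 50 the number called went from 4 to 2. GATA1, a transcription factor of erythroid and megakaryocytic cells, was the one that rose, with 227, 264 and 252 normalized counts in KO and 89.2, 92.2 and 106 in WT (log2 fold change 1.36, limma adjusted p = 1.8e-08). GP9, a chain of the platelet receptor of von Willebrand factor, had 1.83, 3.01 and 3.60 normalized counts in KO and 20.7, 15.7 and 21.8 in WT. CLEC1B, a platelet receptor of podoplanin, had 236 ± 16.2 in KO and 376 ± 7.20 in WT (SD, n = 3 each; log2 fold change -0.67, limma adjusted p = 3.0e-06). The defining platelet genes PF4 and PPBP were among the markers not listed in the table.

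By profile over the 6 libraries, the genes most like ITGA2B were STAR, ATP8A1 and PPFIBP1. Likeness was the root mean square difference between log2 profiles centred on their means, over the 11300 genes whose mean count reached 100, and it was 0.150 for STAR, 0.171 for ATP8A1 and 0.176 for PPFIBP1 on the log2 scale. STAR, which brings cholesterol into mitochondria for steroid synthesis, had 484, 411 and 443 normalized counts in KO and 43.2, 74.2 and 66.9 in WT.

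**Figure D2:**
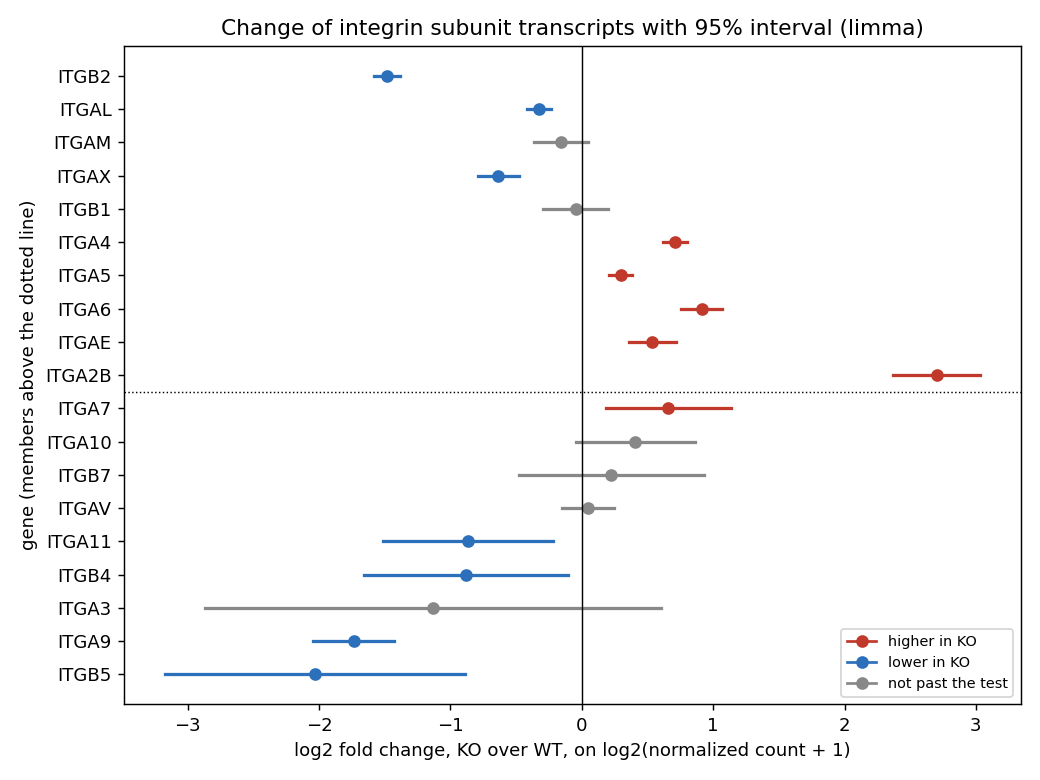
KO/WT log2 fold change on log2(normalized count + 1) of the 10 leukocyte integrin genes (above the dotted line) and of the 9 other integrin subunit genes in the table, with 95% intervals of limma. Colours mark genes higher in KO, lower in KO or not past the test, and ITGA2B at 2.70 and ITGB2 at -1.49 lie at the ends of the 10.

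Promoter windows of RefSeq (GRCh38.p14, 250 bases before to 50 after a gene's start) were found for 7 of the 10 genes (ITGA2B, ITGA4, ITGA5, ITGA6, ITGAE, ITGAM and ITGB1). The windows of ITGA2B and ITGAM are shown because ITGA2B changed most and ITGAM, a textbook target of the ETS factor PU.1, did not pass the test. ITGA2B lies at chr17:44389600-44389899 on the minus strand and ITGAM at chr16:31259725-31260024 on the plus strand. RefSeq places the start of ITGA2B upstream of the GENCODE 29 gene given above, so that its whole window lies outside that gene. The bases next to the GENCODE 29 start of ITGA2B were thus not searched. The ITGB1 window lies inside the GENCODE 29 gene, far from the start given there. Both are written 5′ to 3′ in the direction of the gene, and capitals mark the letters GAGGAA or AGGAAG on either strand (TTCCTC or CTTCCT when read from the other strand), which can overlap.
ITGA2B: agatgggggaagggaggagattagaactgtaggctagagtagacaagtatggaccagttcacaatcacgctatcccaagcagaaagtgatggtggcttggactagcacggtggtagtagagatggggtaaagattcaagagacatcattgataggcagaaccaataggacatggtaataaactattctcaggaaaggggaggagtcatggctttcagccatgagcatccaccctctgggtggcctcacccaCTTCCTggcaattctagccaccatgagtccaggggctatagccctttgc
ITGAM: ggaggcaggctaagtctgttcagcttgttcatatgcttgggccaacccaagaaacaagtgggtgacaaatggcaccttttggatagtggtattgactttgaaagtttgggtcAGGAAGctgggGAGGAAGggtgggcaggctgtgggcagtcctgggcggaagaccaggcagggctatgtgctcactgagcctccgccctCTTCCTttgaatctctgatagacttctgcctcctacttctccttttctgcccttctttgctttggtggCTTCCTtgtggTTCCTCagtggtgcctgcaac
The search covered both strands for 4 motifs. GAGGAA, the core of PU.1-type ETS sites, was found in ITGAM (2 matches), ITGAE (1) and ITGB1 (1), against 27.9% of 35116 windows of the same length. AGGAAG, a general ETS core, was found in ITGAM (4), ITGA2B (1), ITGA5 (1), ITGAE (1) and ITGB1 (1), against 33.6% of windows. The letters AGATAA, 1 form of the GATA motif, were in none of the 7, and 10.3% of windows held them. Other forms were not searched, and the windows of ITGA2B and ITGAM both hold TGATAG. The GC box GGGCGG was in ITGB1 (3), ITGAM (2), ITGA5 (1) and ITGA6 (1), against 45% of windows. AGGAAG was added and chosen for display after the windows had been read. A match, or the lack of one, describes the letters of these windows only.

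Transcript levels of different genes can be compared only per length, here as normalized counts per kb of joined exons. Joined exons take in every annotated transcript of a gene and can be longer than the transcript made. The order of genes therefore depends on this choice of length. In KO the highest level was that of ITGAL at 919 ± 28.2 per kb, followed by ITGB2 at 763 ± 19.4, ITGA4 at 658 ± 13.3 and ITGA5 at 612 ± 5.21 (SD, n = 3 each). In WT it was ITGB2 at 2141 ± 136 per kb, followed by ITGAL at 1152 ± 36.7, ITGA5 at 498 ± 3.58 and ITGA4 at 402 ± 4.82 (SD, n = 3 each). By this measure the first place passed to ITGAL in KO, and ITGA4 and ITGA5 changed places, with no overlap between the libraries of neighbours in either order. The other 6 genes lay far lower, in KO between 51.1 per kb for ITGA2B and 145 for ITGB1, and in WT between 7.77 for ITGA2B and 153 for ITGB1. Neighbours whose libraries overlapped were ITGB1 with ITGA6 and ITGAM with ITGAX in KO, and ITGB1 with ITGAX in WT.

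In the beta2 family the ratio of alpha to beta transcripts was higher in KO, and per kb of joined exons it crossed 1. The alpha transcripts L, M and X summed to 1103, 1047 and 1094 normalized counts per kb in the KO libraries and to 1319, 1421 and 1364 in the WT libraries. ITGB2 had 785, 749 and 756 per kb in KO and 2054, 2297 and 2072 in WT. The ratio of the alpha sum to ITGB2 was 1.42 ± 0.026 in KO and 0.640 ± 0.020 in WT (SD, n = 3 each; exact two-sided permutation test, p = 0.1, the smallest possible). With these lengths it was above 1 in each KO library and below 1 in each WT library. The KO to WT change of the ratio does not depend on the length taken for ITGB2, but the side of 1 does. ITGAL made up 84.1 to 86.1% of the alpha sum in KO and 83.5 to 85.2% in WT, so that ITGAL prevailed in both. These sums were chosen after single values had been seen. They are ratios of transcripts, and the levels of the protein chains or of receptors at the surface were not tested.

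In the beta1 family alpha transcripts exceeded beta transcripts per kb of joined exons in all libraries. The sum of ITGA4, ITGA5 and ITGA6 was 1395 ± 12.2 normalized counts per kb in KO and 967 ± 6.30 in WT (SD, n = 3 each). Its ratio to ITGB1 was 10.3, 9.61 and 9.03 in KO and 4.81, 7.45 and 7.51 in WT, with WT1 as the lowest library. Within the sum ITGA4 took 46.6 to 47.8% in KO and 41.4 to 41.9% in WT. ITGA5 took 43.3 to 44.5% in KO and 51.0 to 52.0% in WT, so that ITGA4 passed ITGA5 in each KO library. ITGA6 took 8.30 to 9.78% in KO and 6.69 to 7.18% in WT.

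**Figure D3:**
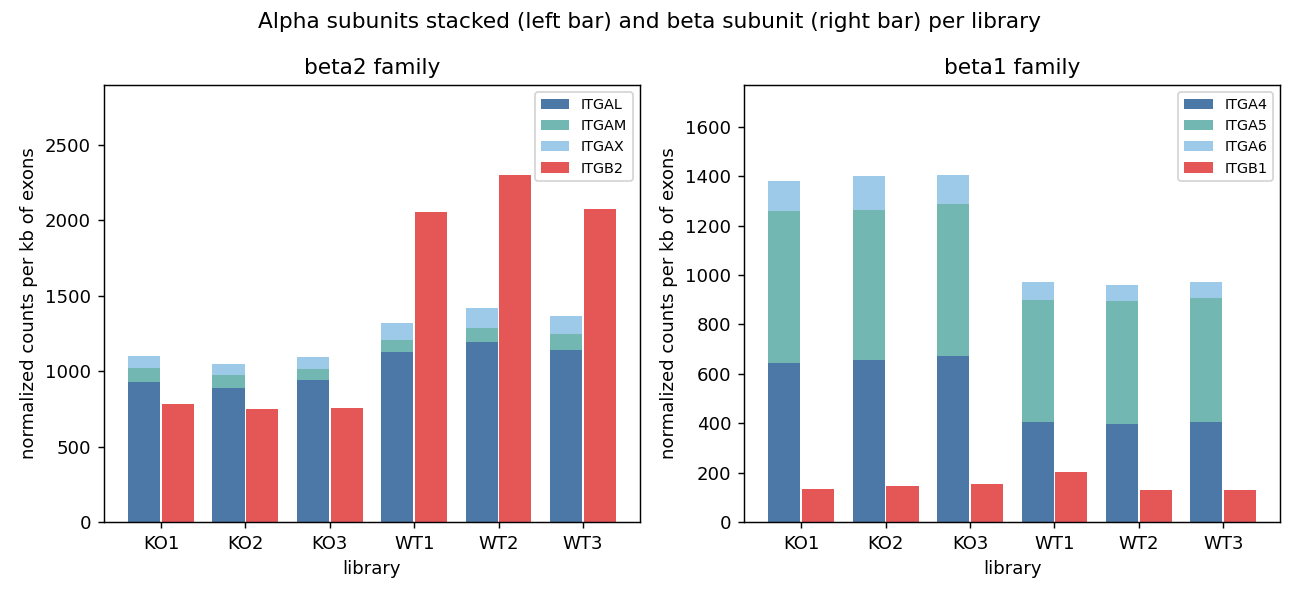
Normalized counts per kb of exons in each library for the beta2 family (left panel) and the beta1 family (right panel), KO libraries left of WT libraries. In each library the left bar stacks the alpha subunits and the right bar is the beta subunit. With the joined exon lengths taken, the ITGB2 bar is shorter than its alpha stack in the 3 KO libraries and taller in the 3 WT libraries. Which bar is taller depends on these lengths.

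The pairs were also compared singly, as log2 of the alpha over the beta value in each library, with 8 pairs computed. The ratio ITGAL/ITGB2 was 0.17, 0.17 and 0.25 in KO and -0.94, -1.02 and -0.93 in WT on the log2 scale. This is a difference of 1.16 (2.23-fold), with each KO library above each WT library. ITGAM/ITGB2 differed by 1.33 and ITGAX/ITGB2 by 0.85, both higher in KO without overlap. All 3 beta2 pairs share the fall of ITGB2 and are not independent of each other.

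Of the beta1 pairs, ITGA6/ITGB1 differed by 0.96, ITGA4/ITGB1 by 0.76 and ITGA5/ITGB1 by 0.35 on the log2 scale, each higher in KO without overlap. Without WT1 the differences were 0.78, 0.55 and 0.13 in the same order of pairs, so that the last of them rested largely on that library. The 6 pairs that did not overlap had p = 0.1 (exact two-sided permutation test), the smallest that the design allows, and 0.13 after Benjamini-Hochberg adjustment over the 8. ITGAE/ITGB7 (difference 0.31) and ITGA4/ITGB7 (0.48) overlapped between groups, with p = 0.4 by the same exact test. ITGB7 itself was low, at 30.2, 26.1 and 24.0 normalized counts in KO and 31.0, 13.5 and 27.6 in WT, and 42.1% of its exonic bases overlap ZNF740 on the other strand.

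**Figure D4:**
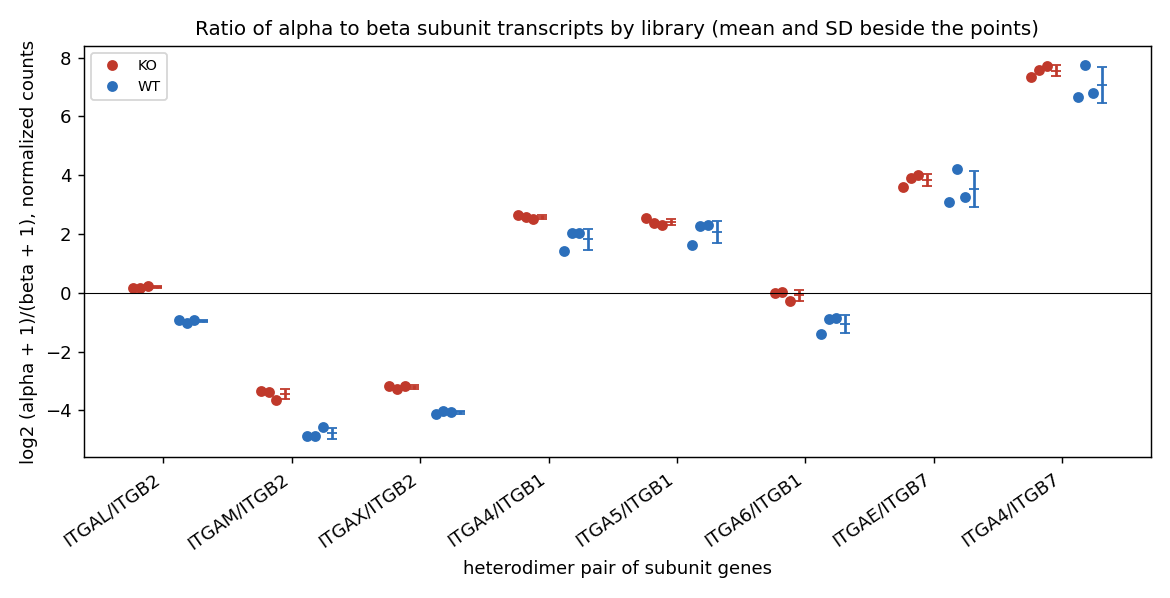
Log2 ratio of alpha to beta subunit transcripts (normalized counts, 1 added to each) for 8 pairs, with KO libraries left of WT libraries and mean and SD beside the points. The 3 pairs with ITGB2 and the 3 with ITGB1 are higher in KO in every library, and the 2 pairs with ITGB7 overlap. The height of a pair also reflects transcript length, so that only KO and WT of 1 pair can be compared.

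Of the 16 other human integrin subunit genes 9 were listed in the table, all at low to moderate levels, and 1 was higher, 4 were lower and 4 were not past the test, a share called near the 60.6% of all genes. ITGA9, an alpha chain found on neutrophils that pairs with beta1, had 65.8, 58.3 and 66.0 normalized counts in KO and 236, 225 and 183 in WT (log2 fold change -1.74, limma adjusted p = 4.6e-09). It thus went the opposite way to the 3 beta1 partners described above. ITGAV, the alpha chain of the vitronectin receptors, had 275 ± 8.52 in KO and 266 ± 14.4 in WT (SD, n = 3 each), with a 95% interval of the log2 fold change of -0.15 to 0.24. ITGB5 (log2 fold change -2.03) is 1 of the 56 genes in excess in WT1, as is ITGA3, and had 1.83, 8.03 and 12.0 normalized counts in KO and 52.6, 19.1 and 20.1 in WT. Its log2 fold change ranged from -2.49 to -1.39 with single libraries left out, and it no longer passed with an ordinary linear model or with a variance without a trend. Without KO1 only 2 of the 9 genes passed and without WT1 only 3, and several other tests or filters passed 1 to 3 of them.

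Of 14 listed activator genes, whose products switch integrins on, 4 were higher, 7 were lower and 3 missed the threshold, against 30.3% of all genes in each direction, with a median log2 fold change of -0.44. FERMT3, which encodes kindlin-3, the blood cell kindlin that binds beta tails, had 5259, 5240 and 5211 normalized counts in KO and 10009, 10997 and 10334 in WT, 1.99 times as many in WT (log2 fold change -0.995, limma adjusted p = 3.4e-13). RASSF5, whose product RAPL links the small GTPase Rap1 to the LFA-1 alpha chain, had 908 ± 82.2 in KO and 2169 ± 81.9 in WT (SD, n = 3 each; log2 fold change -1.26). RASGRP2, an exchange factor that loads Rap1 with GTP, was higher, at 13157 ± 523 in KO and 7133 ± 342 in WT (SD, n = 3 each; log2 fold change 0.88). FYB1, an adaptor between immune receptors and integrins, was higher as well (log2 fold change 1.08). TLN1, which encodes talin, the direct activator of beta tails, had 7530 ± 140 in KO and 7967 ± 308 in WT (SD, n = 3 each; limma adjusted p = 0.11). TLN1 was named after its values had been seen.

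Of 9 genes of integrin inhibitors 1 was higher, 6 were lower and 2 were not past the test, against 30.3% of all genes in each direction, with a median log2 fold change of -0.56. CYTIP, which in lymphocytes holds back cytohesin and thereby LFA-1, had 54.8, 61.3 and 52.8 normalized counts in KO and 152, 175 and 167 in WT (log2 fold change -1.53, limma adjusted p = 4.9e-08). SIPA1 and SIPA1L1 encode proteins that switch Rap1 off, and their log2 fold changes were -0.56 and -1.10. FLNA, the filamin that competes with talin for beta tails, had a log2 fold change of -0.64. The single inhibitor that rose was ITGB1BP1 (ICAP-1), a competitor at the beta1 tail, with 2138 ± 96.7 in KO and 1387 ± 94.1 in WT (SD, n = 3 each). ITGB1BP1 was named after its values had been seen.

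Genes of outside-in signalling were mostly lower in KO. Of 28 genes tested 4 were higher, 21 were lower and 3 missed the threshold, against 30.3% lower among all genes, and the median log2 fold change was -0.43. PXN, the focal adhesion adaptor paxillin, had 72.2, 81.4 and 75.6 normalized counts in KO and 430, 399 and 356 in WT (log2 fold change -2.35, limma adjusted p = 2.5e-12). SRC, a kinase activated at clustered integrins, had 52.1, 27.1 and 36.0 in KO and 188, 252 and 181 in WT (log2 fold change -2.43). Both genes were separated by a wide gap between the groups. PTK2B, which encodes the focal adhesion kinase relative Pyk2, had 5487 ± 170 in KO and 11684 ± 385 in WT (SD, n = 3 each; log2 fold change -1.09). LYN and FGR, which encode kinases of the Src family and were named after their values had been seen, were lower too, with log2 fold changes of -1.46 for LYN and -0.94 for FGR. Among the 4 higher genes was SYK, another kinase, with 4701 ± 55.6 in KO and 3816 ± 46.0 in WT (SD, n = 3 each; log2 fold change 0.30). SYK was also named after its values had been seen.

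Of 31 genes for integrin ligands 21 were listed and 19 tested, and 4 were higher, 8 were lower and 7 missed the threshold, a share called near the 60.6% of all genes, with a median log2 fold change of -0.58. CDH1, which encodes E-cadherin, the ligand of the receptor with the ITGAE chain, had 10.96, 10.04 and 10.81 normalized counts in KO and 203, 189 and 167 in WT, 17.6 times as many in WT. ICAM1, the main ligand of LFA-1 and Mac-1, had 20.1, 12.1 and 31.2 in KO and 84.5, 58.5 and 67.8 in WT. ICAM2, another ligand of LFA-1, went the other way with 70.2 ± 7.19 in KO and 22.7 ± 5.22 in WT (SD, n = 3 each), and was named after its values had been seen. THBS1, a matrix protein bound by several integrins, had 104 ± 4.68 in KO and 803 ± 147 in WT (SD, n = 3 each; log2 fold change -2.92). FN1, fibronectin, had 184, 209 and 680 normalized counts in KO and 4609, 395 and 115 in WT, and its log2 fold change of -0.999 (limma adjusted p = 0.28) turned to 0.48 without WT1.

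Of 12 genes of partners that sit beside integrins in the membrane 6 were higher, 5 were lower and 1 was not past the test, against 30.3% of all genes in each direction, with a median log2 fold change of 0.17. PLAUR, the urokinase receptor that associates with Mac-1, had 1673, 1685 and 1685 normalized counts in KO and 4203, 4226 and 4297 in WT, a very even fall (log2 fold change -1.33, limma adjusted p = 5.0e-15). Among the tetraspanins, which gather integrins into membrane domains, CD37 was lower (log2 fold change -1.19) and CD63 was higher (0.69). Of 14 trafficking genes, which return endocytosed integrins to the surface or send them to lysosomes, 1 was higher, 6 were lower and 7 missed the threshold, a share called below the 60.6% of all genes, with a median log2 fold change of -0.14. RAB4A, a GTPase of rapid recycling, had a log2 fold change of -0.79, and SNX17, which recovers beta1 integrins from endosomes, one of -0.23.

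Of 15 genes of transcription factors known from integrin promoters 5 were higher, 7 were lower and 3 were not past the test, against 30.3% of all genes in each direction, with a median log2 fold change of -0.04. SPI1 encodes PU.1, a factor of the ITGAM and ITGB2 promoters, and had 17488, 15969 and 17243 normalized counts in KO and 23245, 26658 and 23268 in WT (log2 fold change -0.53, limma adjusted p = 7.0e-08). CEBPB, a factor of myeloid and macrophage genes, had 2662, 2774 and 2661 in KO and 9932, 10843 and 10701 in WT (log2 fold change -1.96). CEBPE, a factor of late granulocyte genes, was higher in KO (log2 fold change 0.29), and ETS1, the founding member of the ETS family, was lower (-1.39).

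**Figure D5:**
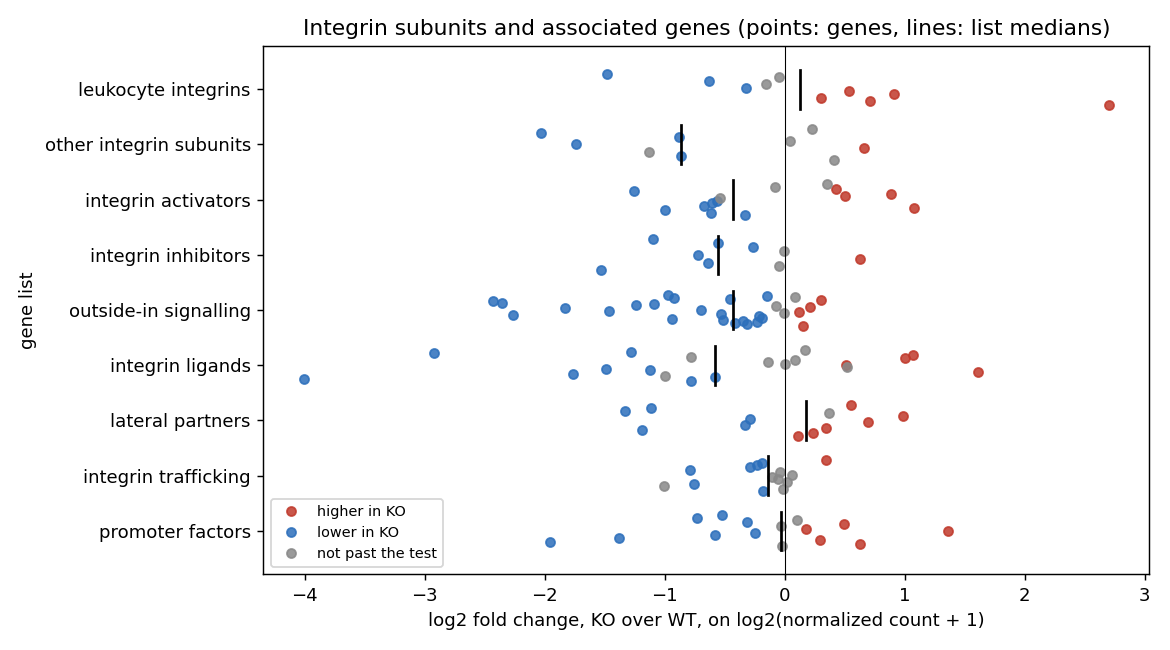
KO/WT log2 fold change on log2(normalized count + 1) of the leukocyte integrin genes and of the genes of 8 lists around them. Each point is a gene tested, coloured by its call, and lines are list medians. The median is 0.12 for the leukocyte integrins and -0.43 for outside-in signalling, where 21 of 28 genes were lower.

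Markers of other blood cells moved with the groups beside the integrin genes, and their counts stand against 30.3% of all genes higher and 30.3% lower. Of 8 specific granule and late neutrophil markers 6 were higher and 1 was lower, with a summed level of 2315 to 2467 normalized counts in KO and 1211 to 1266 in WT. The lower one, FCGR3B, had the largest change of this list (log2 fold change -3.38, limma adjusted p = 9.3e-13), so these markers did not all move together. Of 13 listed eosinophil, basophil and mast cell markers 11 were higher and none was lower, with sums of 72170 to 73905 in KO and 8185 to 8802 in WT. Of 7 listed monocyte markers 2 were higher and 2 were lower, with a median log2 fold change of -0.47. Their sums were 20320 to 20766 in KO and 9835 to 10129 in WT. Most of each sum was LYZ, lysozyme, with 19236 ± 211 in KO and 6109 ± 83.0 in WT (SD, n = 3 each). The 2 lower ones were CD14, a receptor of bacterial lipopolysaccharide, and FCGR1A. CD14 had 118 ± 11.1 in KO and 984 ± 111 in WT, and FCGR1A had 1104 ± 39.6 and 2803 ± 28.6 (SD, n = 3 each). Of 4 listed T and NK cell markers 3 were lower, and of the B cell and erythroid lists only 2 genes each were listed. Their part in the integrin results was not tested, and in bulk RNA fewer cells of a type and less RNA per cell cannot be told apart.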

How the data were processed

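RNA-seq was done on 3 libraries each of akirin2 KO and WT HL60 cells. The deposited signal is the number of reads of a gene scaled by a library size factor, as the authors computed it. The values of a library were whole multiples of a common step (100% of them, tolerance 0.01), taken as 1 read, which gave the depth. According to the submitters' processing notes the tools were DESeq2, featureCounts, Subread 1.5.2 and Trimmomatic 0.36 and the build was GRCh38, without role or order. Annotation and strand setting are not given in the sources consulted. The log2 fold changes and p-values deposited by the authors come from their own comparison and were not used.

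Groups were compared on log2(normalized count + 1) with limma 3.58.1 (eBayes with a trend) in R 4.3.3, two-sided, for 17425 genes with a mean of at least 10, with Benjamini-Hochberg adjustment over all of them and a threshold of 0.05. Such fold changes understate the change of low genes. These steps were tested on simulated data. Pair ratios and AKIRIN2 were compared by exact permutation. Lengths are joined exons of GENCODE 29, matched for 99.55% of genes. The integrin genes and lists were chosen with earlier results of these data known. Named genes were the 10 subunits, AKIRIN2, ITGB3, ITGB7, CDH1, ICAM1, FN1, the 3 genes most like the subunit with the largest change, and from each list those with the largest change or highest count. Genes named outside this rule are said to be so where they appear, apart from genes whose exons overlap a subunit. Alternatives were other pseudocounts, count minimums, scalings, thresholds and tests (edgeR 4.0.16 and DESeq2 1.42.0), removal of a length trend, a replicate block and left-out libraries. Python 3.11.15, pandas 2.3.3, numpy 2.4.6, scipy 1.17.1 and matplotlib 3.10.9 were used.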

Additional observations from a re-analysis of the deposited data

How the results depend on the processing

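Over 20 alternatives the 10 integrin genes gave 200 values, of which 195 kept direction and side of the threshold, 1 passed the threshold only there (ITGAM without WT1, -0.24) and 4 changed sign, all of ITGB1: 0.17 without WT1, 0.12 without WT1 and KO3, 0.0095 with equal library totals and 0.0077 without KO1 (range with single libraries left out, -0.16 to 0.17). FN1 turned to 0.48 without WT1 (range -2.18 to 0.48) and ITGB7 to -0.13 without WT2 (range -0.13 to 0.44). The 5 other integrin subunits called became 2 with DESeq2, 3 with edgeR, 2 at a minimum mean of 50, 1 with an ordinary linear model, 2 with a variance without a trend, 2 at an adjusted p under 0.01, and 2 (without KO1) to 7 (without KO3) with single libraries left out. The count tests on the reads of all 6 libraries were not run, because the value of 1 read in KO2 lies too near 1 for its reads to be checked as recovered, and edgeR and DESeq2 were run on the other 5 libraries, a choice made after seeing the data. The sources used do not say whether KO and WT libraries of the same number belong together. Correlations of deviations between same-numbered libraries were -0.073, 0.052 and -0.075. With 3 libraries per group they cannot show whether a number marks a shared preparation. With a replicate block 5 integrin genes were higher and 3 lower, as without it. Low counts limit several of the other subunits, ITGB5 and ITGB7 among them, and 3 against 3 libraries limit the exact tests to p = 0.1.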
